A study of Mus musculus with 6 samples.

Results

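This account covers 32 mouse genes of glycolysis, lactate transport and the hypoxia response among the 17551 genes of a raw count table. They are a list by name of the pathway's enzymes, carriers and hypoxia-induced genes, with no measured value in the rule. The list was, however, chosen with earlier results of these data known. All 32 had a row and passed the filter on low counts. RNA was sequenced from neurospheres of C57BL/6 strain background, kept in EGF and FGF with the supplements N2 and B27. Neurospheres are balls of cells in suspension, a form in which neural stem and progenitor cells are grown. Some markers of such cells were low in some libraries, as given below. The genotype ACVR1 G328V, with replicates 1, 2 and 3, carries a glycine-to-valine change in a BMP type I receptor. The genotype ACVR1 WT has replicates 1, 3 and 70A. Values below follow that replicate order within each genotype. How the receptor was altered, what other alleles the cultures share, and which animals or tissue they came from are not given in the labels. The comparison asked how expression of these genes differed between G328V and WT cultures.

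Glycolysis splits glucose into pyruvate in the cytosol, and lactate dehydrogenase turns pyruvate into lactate, which leaves the cell through monocarboxylate carriers. When oxygen is low, the transcription factor HIF-1, of which Hif1a encodes the regulated subunit, raises the transcription of many of these enzymes and carriers together with genes for blood vessel growth, acid balance and mitochondrial turnover. Hydroxylase enzymes that need oxygen mark the HIF-1 subunit for destruction, so its control is largely at the level of protein. Neural progenitors are known for strong glycolysis, with isoforms that shift as they differentiate.

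The sequences below are promoter windows, shown for the 3 members whose groups did not overlap (Aldoa, Tpi1 and Gapdh), for the lactate dehydrogenase pair, and for Adm, the member with the largest difference. Each runs 5′ to 3′ in the direction of the gene, from 250 bases before to 50 bases after a transcription start in RefSeq (GRCm38.p6), and is the most upstream window where a gene has several. Capitals mark each match to the core of the hypoxia response element, searched on both strands as ACGTG and as GCGTG.
Aldoa (chr7:126800398-126800697, minus strand): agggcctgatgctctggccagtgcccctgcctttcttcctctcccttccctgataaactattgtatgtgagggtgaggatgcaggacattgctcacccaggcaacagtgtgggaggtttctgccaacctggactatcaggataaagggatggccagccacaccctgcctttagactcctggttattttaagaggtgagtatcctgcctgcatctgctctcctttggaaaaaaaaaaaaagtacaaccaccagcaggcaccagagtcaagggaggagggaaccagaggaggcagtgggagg
Tpi1 (chr6:124814109-124814408, minus strand): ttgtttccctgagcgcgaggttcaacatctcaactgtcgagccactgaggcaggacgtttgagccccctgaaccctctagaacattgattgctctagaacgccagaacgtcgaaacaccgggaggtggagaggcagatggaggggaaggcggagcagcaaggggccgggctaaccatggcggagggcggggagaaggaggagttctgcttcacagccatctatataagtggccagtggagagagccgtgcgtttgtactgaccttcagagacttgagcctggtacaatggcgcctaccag
Gapdh (chr6:125165724-125166023, minus strand): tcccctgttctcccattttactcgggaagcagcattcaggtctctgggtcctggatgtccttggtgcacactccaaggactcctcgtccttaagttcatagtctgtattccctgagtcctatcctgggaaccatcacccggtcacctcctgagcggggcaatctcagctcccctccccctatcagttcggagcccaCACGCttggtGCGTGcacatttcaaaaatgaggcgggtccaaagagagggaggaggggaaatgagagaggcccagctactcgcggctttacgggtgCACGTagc
Ldha (chr7:46845554-46845853, plus strand): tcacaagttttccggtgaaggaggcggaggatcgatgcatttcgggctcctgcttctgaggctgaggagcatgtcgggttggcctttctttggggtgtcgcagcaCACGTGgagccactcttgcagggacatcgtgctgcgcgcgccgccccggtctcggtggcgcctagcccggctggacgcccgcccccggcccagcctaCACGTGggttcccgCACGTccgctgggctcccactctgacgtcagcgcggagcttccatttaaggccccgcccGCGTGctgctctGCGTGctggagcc
Ldhb (chr6:142507908-142508207, minus strand): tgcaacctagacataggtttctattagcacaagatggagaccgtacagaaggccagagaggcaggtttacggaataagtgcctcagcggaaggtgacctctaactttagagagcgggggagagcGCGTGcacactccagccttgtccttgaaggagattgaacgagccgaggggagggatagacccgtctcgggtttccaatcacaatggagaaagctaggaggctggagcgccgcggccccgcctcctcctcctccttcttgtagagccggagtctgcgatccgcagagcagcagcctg
Adm (chr7:110627407-110627706, plus strand): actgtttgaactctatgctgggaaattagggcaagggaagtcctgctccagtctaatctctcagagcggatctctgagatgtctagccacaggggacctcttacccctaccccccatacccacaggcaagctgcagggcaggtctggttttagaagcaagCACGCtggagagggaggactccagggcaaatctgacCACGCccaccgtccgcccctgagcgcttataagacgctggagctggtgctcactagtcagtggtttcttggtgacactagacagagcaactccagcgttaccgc

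Promoter windows were found for 30 of the 32 members, with no entry for Slc2a3 and Ndrg1. Of the 43 member windows, 35 (81.4%) held at least 1 of the 2 motifs, against 14379 of all 32841 windows of 300 bases (43.8%). The motif ACGTG was in 53.5% of member windows and 19.6% of all windows, and GCGTG in 58.1% and 32.4%. Both motifs hold a CpG, and member windows had a median of 18 CpG dinucleotides, against 7 over all windows. The printed Ldha window had 7 matches, the most of any member window, with each CACGTG counted on both strands. The Ldhb window had 1 match and the Adm window 2. The Gapdh window had 3, and the printed Aldoa and Tpi1 windows had 0. The other windows of Aldoa overlap, and each held the same 1 match. These matches are letters in a window and carry no measure of binding.

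The libraries held 115953495 to 182626231 counts in G328V and 120457925 to 191115532 in WT, and 14643 genes were tested with edgeR's quasi-likelihood test. Acvr1 itself spanned 244 to 650.1 CPM in G328V (CPM, counts per 1000000 on TMM-scaled library sizes), against 42.4 to 100.0 CPM in WT. Of 5 neural stem and progenitor markers, Sox2, Vim and Nes were at 91.2 CPM or more in all 6 libraries, while Msi1 spanned 0.716 to 40.6 CPM and Fabp7 0.182 to 1313 CPM. Csf1r, of microglia, was at 1.7 CPM or less, and Ptprc, of blood cells, at 0.506 CPM or less. The 3 endothelial markers with a row summed to 1.02 to 18.1 CPM in G328V and 1.71 to 39.4 CPM in WT, with Pecam1 at 0.972 CPM or less and Cdh5 at up to 38.7 CPM. Astrocyte markers summed to 4.36 to 54.1 CPM in G328V and 12 to 105 CPM in WT. The highest sum of each group was mostly Aldh1l1, at 50.2 CPM (G328V) and 104 CPM (WT). Of these 4 markers 3 had a positive difference, and Gfap reached 10.1 CPM in G328V replicate 1 and 0.0731 CPM in WT. Xist was at 443 to 795 CPM (G328V) against 0.25 to 1.18 CPM (WT), so genotype and the sex of the cultures cannot be told apart in any result here. WT replicate 1 stood apart in several cell type genes. Olig2 was at 416 CPM in it and at 0.938 CPM or less in each of the other 5 libraries, while Pdgfra was lowest there at 9.65 CPM. G328V replicate 1 stood apart in Sox10, at 65.2 CPM against 0.0574 CPM or less in every other library. The summed level of 4 oligodendrocyte lineage markers was 12.8 to 169.6 CPM in G328V and 46.3 to 1041 CPM in WT, and that of 4 neuron markers 4.5 to 34.9 CPM in G328V and 2.92 to 428 CPM in WT. Each highest WT sum was that of replicate 1 and came mostly from Olig1 and Olig2, and from Mtap2 (Map2), while Snap25 and Rbfox3 were not highest there. The 4 fibroblast and pericyte markers summed to 0.87 to 105 CPM in G328V and 6.1 to 504 CPM in WT, where Col3a1 gave 455 CPM of the highest sum. The series text calls the replicates biological without naming their animals or cultures, and each p-value therefore covers only the spread among these 6 libraries.

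No member passed the false discovery rate of 0.05. edgeR called 0 of 14643 genes (0.00%). Its smallest adjusted p was 0.997 among the members and 0.254 over all genes, that of Xist (log2 difference 9.72). Since even Xist was not called, the lack of a call by edgeR says little about how far a member differed. At an unadjusted p under 0.05 edgeR counted 1 member, Aldoa, where 4.06% of all genes passed. DESeq2 also called 0 members, with 173 of 16521 genes called (1.05%), and counted 4 members at an unadjusted p under 0.05, Slc2a3, Aldoa, Ldha and Adm, where 6.95% of all genes passed. By limma-voom 0 members were called and 3 (Aldoa, Gapdh and Ldha) had an unadjusted p under 0.05, where 4.03% of all genes passed.

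The difference between the groups was positive (G328V higher) for 24 of the 32 members, against 7275 of 14643 genes. The median log2 difference was 0.25 over the members and 0.00 over all genes tested. Leaving out 1 library gave a members' median of 0.38, 0.24 and 0.30 for G328V replicates 1, 2 and 3. It was 0.60 without WT replicate 3 and 0.39 without WT replicate 70A. Leaving out WT replicate 1 gave 0.21 with 19 members positive, against 0.06 over all genes with 7888 of 14643 positive. The groups did not overlap for 3 members, Aldoa, Tpi1 and Gapdh, each higher in every G328V library than in any WT library, where 5.25% of all genes were higher without overlap and 9.70% did not overlap in either direction. With total-count scaling, which moved the median of all genes to 0.12, the groups did not overlap for 7 members, all higher, with Pgk1, Pgam1, Ldha and Pfkfb4 added, against 10.8% of all genes in either direction. The 32 members together took 1.05%, 1.52% and 1.24% of all counts (G328V) against 0.542%, 0.941% and 0.825% (WT), without overlap. On TMM-scaled library sizes, set beside this after the data were seen, their summed levels were 9696, 14660 and 12349 CPM (G328V) against 5306, 10221 and 8801 CPM (WT), and the groups overlapped. Abundant members weigh most in both sums, with Gapdh alone at 1968 to 2471 CPM in G328V and 631 to 1814 CPM in WT.

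**Figure D1:**
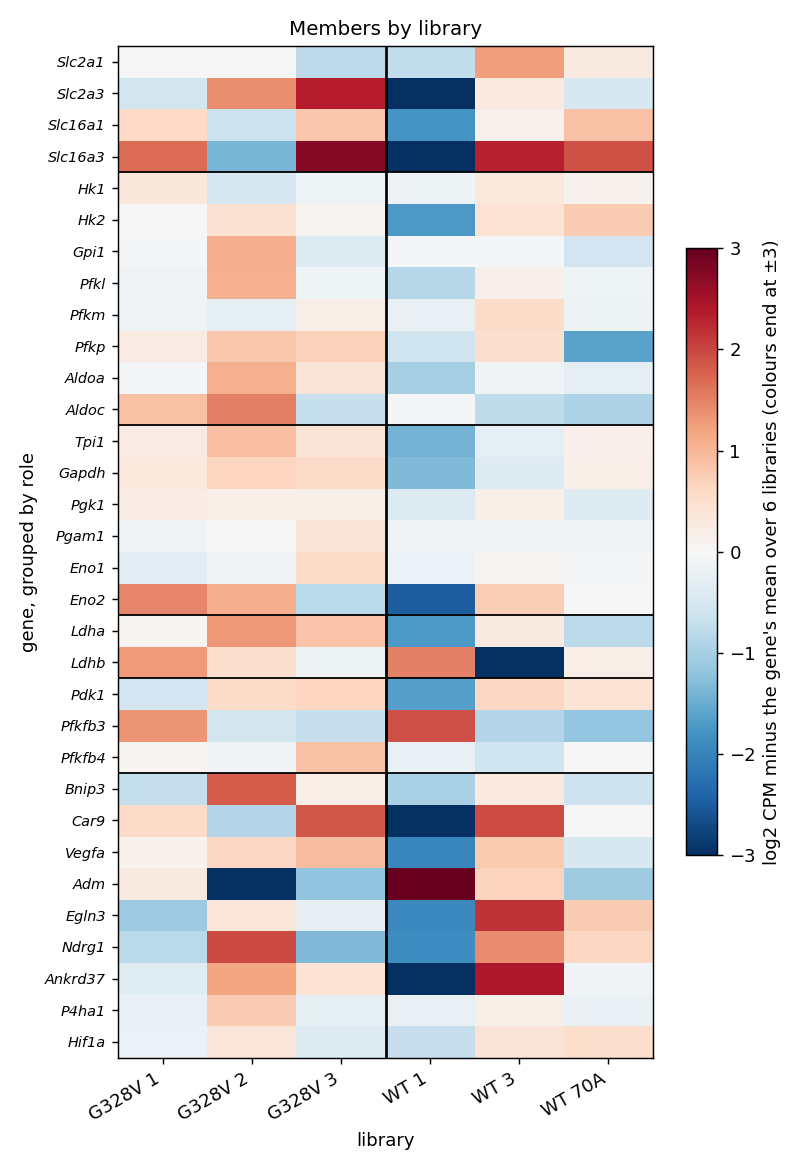
Level of each of the 32 members (rows, grouped by role, with lines between groups) in the 6 libraries (columns), as log2 CPM minus the gene's mean over the libraries; red is above and blue below the mean. WT replicate 1 is blue in most rows, with Adm, Pfkfb3 and Ldhb as red exceptions.

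The members varied widely within both groups. WT replicate 1 ranked last of the 6 libraries for 19 of the 32 members, where it was lowest for 23.3% of all genes tested. Its median deviation from the gene means was -0.92 on the log2 scale over the members and 0.02 over all genes. G328V replicate 2 had the highest level for 11 members, where it was highest for 19.1% of all genes, with a median deviation of 0.53 over the members. G328V replicates 1 and 3 lay at 0.03 and 0.20, and WT replicates 3 and 70A at 0.29 and -0.07, so WT replicate 3 lay above 2 of the G328V libraries. The SD of log2 CPM was larger in WT than in G328V for 21 of the 32 members (65.6%), against 57.0% of all genes. Olig1, Olig2, Mtap2, Tubb3, Nes, Msi1 and Fabp7 were highest in WT replicate 1, and their part in the low level of the members there was not tested. In bulk RNA, fewer cells of a type and less RNA per cell cannot be told apart.

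Glucose enters neural cells through GLUT1 (Slc2a1) and GLUT3 (Slc2a3), of which GLUT3 has the higher affinity and is best known from neurons. Slc2a1 was at 164, 161 and 94.0 CPM (G328V) against 97.0, 389 and 196 CPM (WT). Slc2a3 was at 153, 586 and 1145 CPM (G328V) against 28.1, 274 and 159.8 CPM (WT). G328V replicates 2 and 3 were above every WT library for Slc2a3, while G328V replicate 1 lay below WT replicates 3 and 70A. The log2 differences were -0.70 (SE 0.53) for Slc2a1 and 2.03 (SE 1.00) for Slc2a3, with unadjusted edgeR p-values of 0.234 and 0.0864 and adjusted p of 0.997 for both. Slc2a1 was at -0.09 without WT replicate 3 and at -0.49 or below without any other 1 library, and Slc2a3 ranged from 1.26 without G328V replicate 3 to 2.72 without WT replicate 3.

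The ratio of the 2 glucose carriers is free of library scaling. Per kb of transcript, Slc2a1 stood above Slc2a3 in G328V replicate 1 (log2 ratio 0.38) and below it in G328V replicates 2 and 3 (-1.58 and -3.33). In WT it stood above Slc2a3 in 3 of 3 libraries, with log2 ratios of 2.07, 0.78 and 0.58. The mean log2 ratio was -1.51 ± 1.85 in G328V and 1.14 ± 0.81 in WT (SD, n = 3 each), -2.65 apart (two-sided p = 0.1 by exact permutation, and no smaller value is possible with 3 libraries against 3). Adjusted over the 7 isoform pairs by Benjamini-Hochberg, p was 0.7. All G328V ratios were below all WT ratios, and the difference was -1.75 without G328V replicate 3.

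Lactate and pyruvate cross the membrane through MCT1 (Slc16a1) and the hypoxia-induced exporter MCT4 (Slc16a3). Slc16a1 was at 407, 171 and 476 CPM (G328V) against 79.1, 292 and 489.6 CPM (WT), with wide overlap. Slc16a3 was at 14.2, 1.73 and 30.2 CPM (G328V) against 0.0163, 22.0 and 16.8 CPM (WT), where WT replicate 1 held 2 counts. The Cufflinks table gave 23 fragments for Slc16a3 in that library, so its level there rests on few reads and differs between the tables. Slc16a1 was the higher of the pair per kb in all 6 libraries. The mean log2 ratio of Slc16a1 to Slc16a3 was 5.12 ± 1.35 in G328V and 6.81 ± 4.44 in WT (SD, n = 3 each; exact permutation p = 0.8, two-sided). The difference of this ratio was -1.69 with all libraries and 0.85 without WT replicate 1, and -0.41 from the Cufflinks table. The log2 differences were 0.29 (SE 0.70) for Slc16a1 and 0.25 (SE 1.82) for Slc16a3, and -0.17 and -0.34 without WT replicate 1. For Slc16a3 limma-voom gave 1.94 in place of 0.25.

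Hexokinase traps glucose as glucose 6-phosphate; Hk1 is the constitutive brain form and Hk2 the form that growth and hypoxia induce. Hk1 was at 359, 199.8 and 257 CPM (G328V) against 255, 349 and 304 CPM (WT). Hk2 was at 105, 143 and 109.8 CPM (G328V) against 31.8, 139 and 178 CPM (WT). WT replicate 1 was the lowest library for Hk2 and lay inside the range of the others for Hk1. The log2 differences were -0.15 (SE 0.29) for Hk1 and 0.04 (SE 0.60) for Hk2. Per kb, Hk1 was above Hk2 in all 6 libraries, with a mean log2 ratio of 1.68 ± 0.65 in G328V and 2.22 ± 1.16 in WT (SD, n = 3 each; exact permutation p = 0.6, two-sided). The difference of the ratio was -0.54 with all libraries and 0.11 without WT replicate 1.

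Gpi1, the isomerase that follows hexokinase, was at 435, 941 and 335 CPM (G328V) against 430.3, 437 and 301 CPM (WT). Its log2 difference was 0.55 (SE 0.44), and it was -0.02 without G328V replicate 2, the only library far from the rest. Phosphofructokinase, the committed step, is built from liver (Pfkl), muscle (Pfkm) and platelet (Pfkp) subunits. Pfkl was at 125, 279 and 122 CPM (G328V) against 73.3, 149 and 122 CPM (WT). Pfkm was at 88.1, 79.5 and 109 CPM (G328V) against 81.3, 138 and 86.1 CPM (WT). Pfkp was at 145, 214 and 198 CPM (G328V) against 81.6, 172 and 40.1 CPM (WT), with G328V replicate 1 below WT replicate 3. For each of the 3 genes the genotypes overlapped, with log2 differences of 0.61, -0.14 and 0.92 for Pfkl, Pfkm and Pfkp (SE 0.45, 0.29 and 0.53). Without G328V replicate 2 that of Pfkl was 0.10, and that of Pfkp ranged from 0.54 without WT replicate 70A to 1.59 without WT replicate 3.

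The share of each gene in the phosphofructokinase total does not depend on library scaling. Pfkm gave 30.9%, 17.9% and 32.1% of the summed level per kb in G328V and 41.8%, 37.1% and 41.3% in WT, so every G328V share was below every WT share. Pfkp gave 35.3%, 33.5% and 40.4% in G328V and 29.1%, 32.0% and 13.4% in WT, so every G328V share was above every WT share. The differences in mean share were -13.1 and 11.6 percentage points, each with a two-sided p of 0.1 by exact permutation, again the smallest possible here, and 0.15 adjusted over the 3 genes. The Pfkp difference was 5.8 points without WT replicate 70A, the Pfkm difference -8.6 without G328V replicate 2. Pfkl gave 36.6% ± 10.8 in G328V and 35.1% ± 8.92 in WT (SD, n = 3 each; exact permutation p = 0.8). The 3 shares sum to 100% in each library and are not independent.

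**Figure D2:**
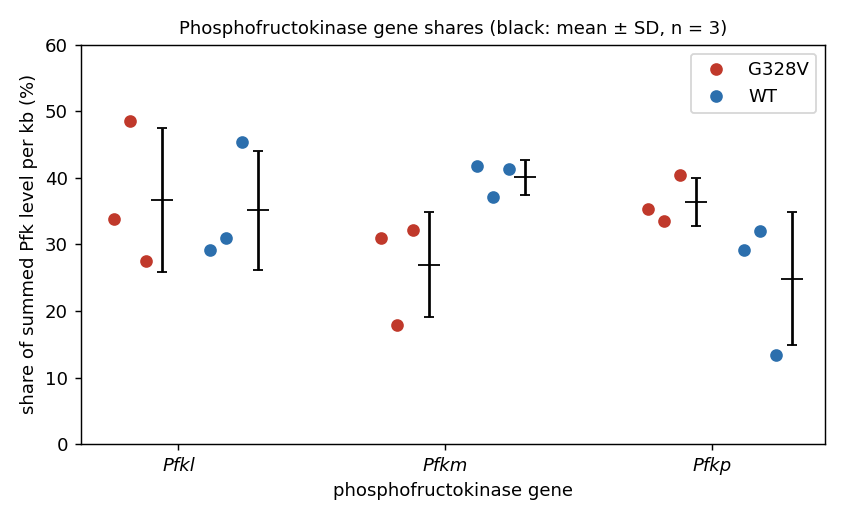
Share of the summed phosphofructokinase level per kb of transcript (vertical axis, percent) that each of Pfkl, Pfkm and Pfkp gave in each G328V and WT library (points), with the mean and SD of 3 libraries in black. Pfkm shares lie below those of WT in all G328V libraries and Pfkp shares above them, while Pfkl shares overlap.

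Aldolase cleaves fructose 1,6-bisphosphate, and Aldoa is the general form and Aldoc the brain form. Aldoa was at 979, 2098 and 1309 CPM (G328V) against 501, 937 and 819.9 CPM (WT), so the groups did not overlap, though G328V replicate 1 and WT replicate 3 were close. It had a mean of 1462 ± 575 CPM (G328V) against 753 ± 226 CPM (WT) (SD, n = 3 each). The log2 difference was 0.96 (SE 0.39; edgeR unadjusted p = 0.0491, adjusted p = 0.997), and 0.60 without G328V replicate 2. Aldoc was at 67.4, 105 and 22.8 CPM (G328V) against 35.9, 21.7 and 19.2 CPM (WT), with a log2 difference of 1.34 (SE 0.59; edgeR unadjusted p = 0.0608, adjusted p = 0.997). G328V replicate 3 lay below WT replicate 1 for Aldoc. Per kb, Aldoa was above Aldoc in all 6 libraries, and the mean log2 ratio was 5.56 ± 1.04 in G328V and 5.77 ± 0.94 in WT (SD, n = 3 each; exact permutation p = 1.0).

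The enzymes from triose phosphates to phosphoenolpyruvate had 6 of 6 positive differences, with a median of 0.63, and 0.33 without WT replicate 1. Tpi1, which interconverts the triose phosphates, was at 713, 1127 and 789.5 CPM (G328V) against 226, 493 and 667 CPM (WT). Its groups did not overlap, and the log2 difference was 0.92 (SE 0.44; edgeR adjusted p = 0.997). Gapdh, which makes the NADH of glycolysis and is often used as a reference gene, was at 1968, 2471 and 2364 CPM (G328V) against 631, 1206 and 1814 CPM (WT). The Gapdh groups did not overlap either, with a log2 difference of 0.90 (SE 0.41; edgeR adjusted p = 0.997). For both genes WT replicate 1 was the lowest library, and without it the log2 difference was 0.57 for each.

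Pgk1, which yields the first ATP of the pathway, was at 1207, 1179 and 1178 CPM (G328V) against 776, 1196 and 798 CPM (WT). The 3 G328V libraries lay close together, and WT replicate 3 was level with them, so the groups overlapped. Pgk1 lies on chromosome X, at 106187100 to 106203699 (GRCm38), in libraries that also differ in Xist. Pgam1, a mutase, was at 702, 757 and 983 CPM (G328V) against 704, 714 and 705 CPM (WT), the narrowest WT range of any member. Their log2 differences were 0.36 (SE 0.26) and 0.20 (SE 0.23).

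Enolase makes phosphoenolpyruvate, and Eno1 is the general form and Eno2 the neuronal form. In the HTSeq table Eno1 was at 59.8, 71.4 and 111 CPM (G328V) against 66.6, 79.3 and 72.7 CPM (WT), with overlap. The Cufflinks table of the same libraries held 80089, 72701 and 139900 fragments for Eno1 in G328V and 46205, 110016 and 103303 in WT. HTSeq counts per fragment were 0.131 ± 0.0141 in G328V and 0.142 ± 0.0305 in WT (SD, n = 3 each). Across the 8924 genes that reached 500 counts in every library the median was 1.95 to 1.96, and 1 of these genes had a lower value than Eno1. The other 25 members with that many counts had values of 1.91 to 1.99. Gm5506 (also named Eno1b), which GENCODE tags as a retrogene, a copy made from a messenger RNA, has its own row in both tables, and whether reads shared with it account for the low Eno1 counts was not tested. The HTSeq level of Eno1 is therefore uncertain as a level.

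**Figure D3:**
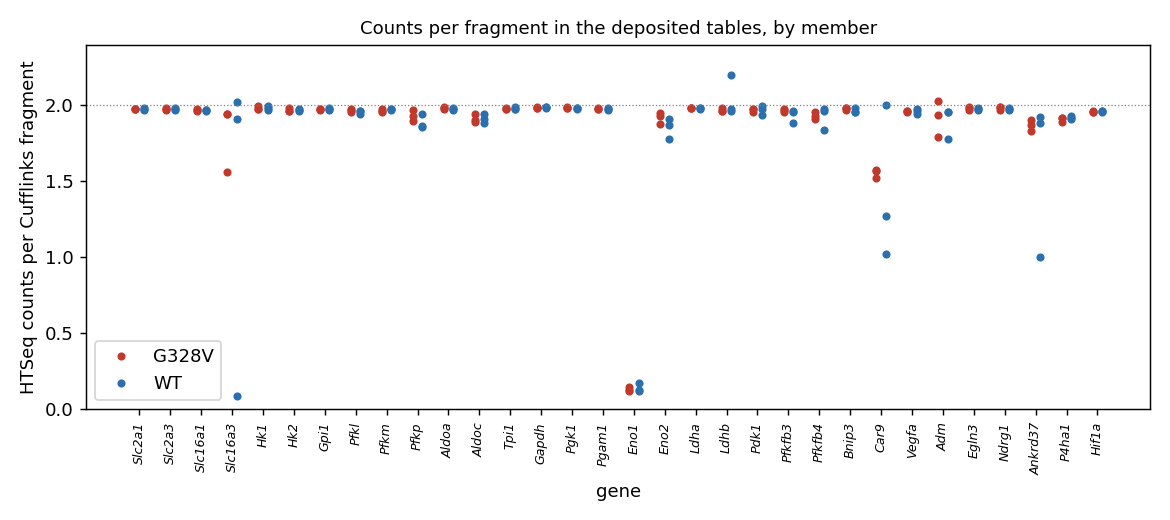
HTSeq counts per Cufflinks fragment (vertical axis) for each of the 32 members (horizontal axis, grouped by role) in the G328V and WT libraries (points); the dotted line marks 2. Eno1 lies near the bottom in all 6 libraries, while Slc16a3 lies there in WT replicate 1 alone, on 2 counts, and most other points lie close to the line.

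By Cufflinks fragments, Eno1 averaged 1176 ± 287 fragments per 1000000 in G328V and 1029 ± 269 in WT (SD, n = 3 each), with overlapping groups and a log2 difference of 0.21 by edgeR on that table (adjusted p = 0.995), against 0.15 (SE 0.30) from HTSeq counts. Eno2 was at 42.5, 32.8 and 8.80 CPM (G328V) against 2.78, 26.0 and 15.5 CPM (WT) in the HTSeq table, with a log2 difference of 0.93 (SE 0.90). WT replicate 1, which held the highest neuron marker sum, had the lowest level of Eno2. Eno1 stood above Eno2 per kb in all 6 libraries, with a mean log2 ratio from fragments of 6.10 ± 1.52 in G328V and 6.99 ± 1.24 in WT (SD, n = 3 each; exact permutation p = 0.5). From HTSeq counts the same ratio was 2.22 ± 1.67 in G328V and 3.27 ± 1.57 in WT, and the difference of -1.05 ranged from -2.00 without G328V replicate 3 to -0.16 without WT replicate 1.

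**Figure D4:**
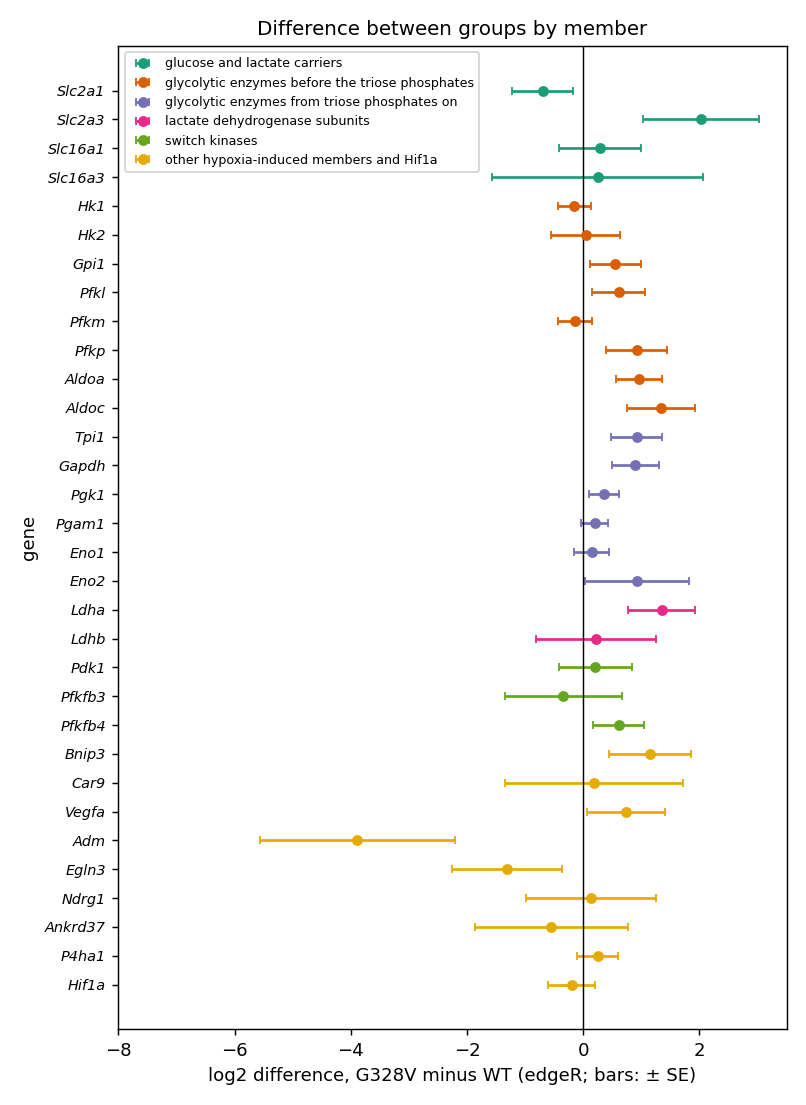
Log2 difference between G328V and WT by edgeR (horizontal axis; points, with bars of ± SE) for each of the 32 members (vertical axis), coloured by role. Many of the bars cross 0, and Slc2a3 at 2.03 and Adm at -3.89 lie farthest from it.

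Ldha and Ldhb encode the muscle-type and heart-type subunits of lactate dehydrogenase, and the muscle-type subunit is the hypoxia-induced one. Ldha was at 917, 2165 and 1587 CPM (G328V) against 267, 1054 and 508 CPM (WT). G328V replicate 1 lay below WT replicate 3, so the groups overlapped. Ldha had a mean of 1556 ± 625 CPM (G328V) against 609.9 ± 403 CPM (WT) (SD, n = 3 each), with an unadjusted edgeR p of 0.0572 and an adjusted p of 0.997. Ldhb was at 56.6, 33.0 and 21.1 CPM (G328V) against 66.3, 2.34 and 26.4 CPM (WT). WT replicate 3 was the lowest library for Ldhb and WT replicate 1 the highest, a 28.3-fold range within WT. The log2 differences were 1.35 (SE 0.58) for Ldha and 0.22 (SE 1.04) for Ldhb.

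Per kb, Ldha was above Ldhb in all 6 libraries. The log2 ratio was 3.58, 5.60 and 5.79 (G328V) against 1.57, 8.38 and 3.83 (WT), so WT replicates 1 and 3 marked the low and the high end. The mean was 4.99 ± 1.22 in G328V and 4.59 ± 3.47 in WT (SD, n = 3 each; exact permutation p = 1.0), and the difference was -1.11 without WT replicate 1 and 2.29 without WT replicate 3.

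**Figure D5:**
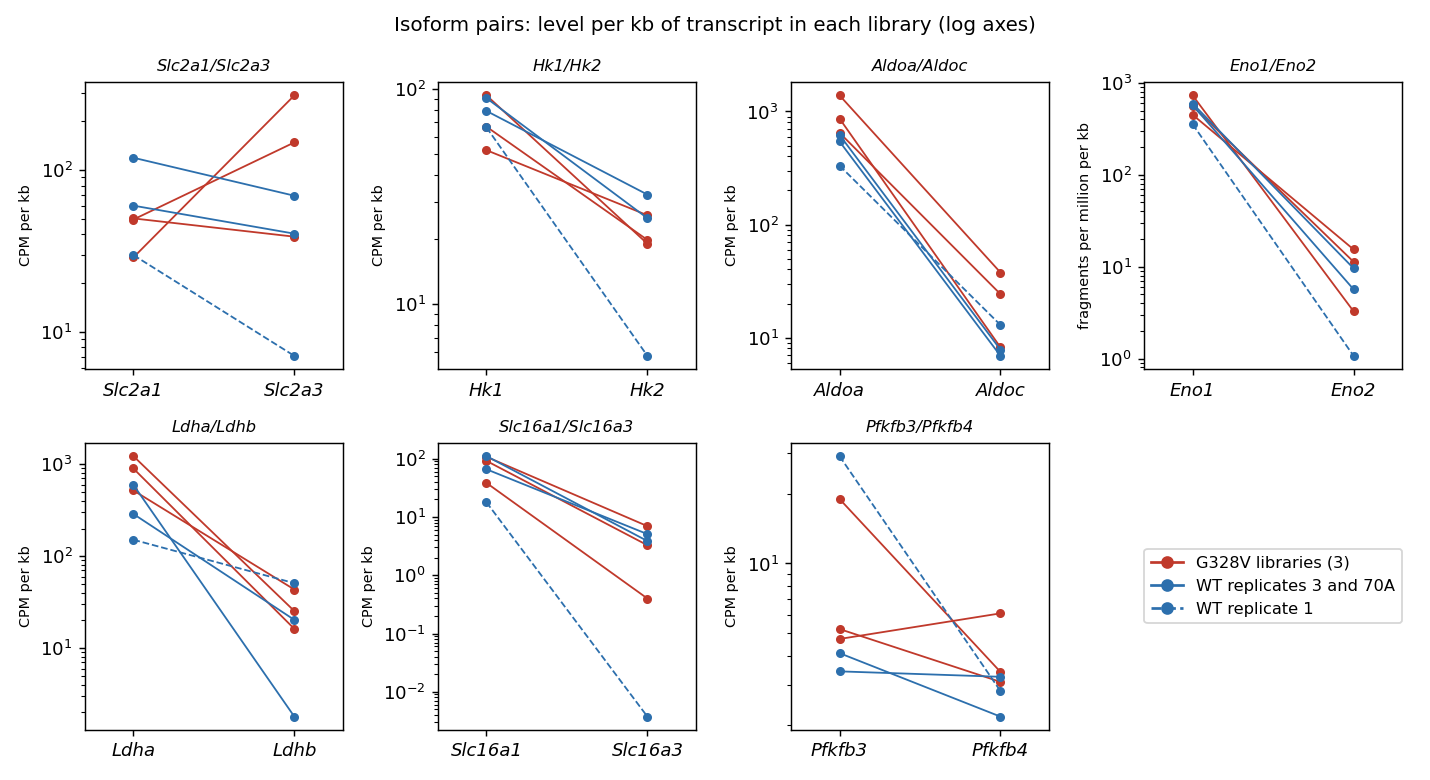
Level per kb of transcript (vertical log axes; HTSeq CPM, and Cufflinks fragments scaled to library size for the enolases) of both genes of 7 isoform pairs, joined by a line for each library. The order within a pair is the same in all 6 libraries for the hexokinases, aldolases, enolases, lactate dehydrogenases and lactate carriers, and differs between libraries for the glucose carriers and the Pfkfb pair.

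Pdk1 encodes a kinase that shuts pyruvate dehydrogenase and so keeps pyruvate in the cytosol. It was at 44.1, 96.1 and 102 CPM (G328V) against 20.7, 101 and 86.6 CPM (WT), with a log2 difference of 0.21 (SE 0.63) that was -0.24 without WT replicate 1. Pfkfb3 and Pfkfb4 make fructose 2,6-bisphosphate, the activator of phosphofructokinase. Pfkfb3 was at 88.1, 24.1 and 21.9 CPM (G328V) against 135, 19.0 and 15.8 CPM (WT), so replicate 1 was the highest library of each group. Its log2 difference was -0.34 (SE 1.00) with all libraries and 1.35 without WT replicate 1. Pfkfb4 was at 11.9, 10.7 and 21.3 CPM (G328V) against 9.82, 7.62 and 11.3 CPM (WT), with overlap and a log2 difference of 0.61 (SE 0.44). The mean log2 ratio of Pfkfb3 to Pfkfb4 was 0.96 ± 1.44 in G328V and 1.45 ± 1.71 in WT (SD, n = 3 each; exact permutation p = 0.6).

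The other hypoxia-induced members and Hif1a had 5 of 9 positive differences, with a median of 0.14, and 3 of 9 with a median of -0.38 without WT replicate 1. Hif1a mRNA was at 460.1, 669 and 397 CPM (G328V) against 322, 682 and 751 CPM (WT), with a log2 difference of -0.20 (SE 0.40). Without WT replicate 1 the groups did not overlap for Hif1a, as for 23.3% of all genes in that setting. Vegfa, the vessel growth factor, was at 105, 149.8 and 185 CPM (G328V) against 25.2, 170.2 and 70.5 CPM (WT), with a log2 difference of 0.73 (SE 0.67) that ranged from 0.27 without WT replicate 1 to 1.60 without WT replicate 3. Car9, a carbonic anhydrase of the cell surface and a common marker of hypoxia, was at 0.752, 0.266 and 1.85 CPM (G328V) against 0.0325, 1.98 and 0.506 CPM (WT). These Car9 levels stand for 129, 32 and 341 counts in G328V and 4, 348 and 88 counts in WT, and the log2 difference was 0.19 (SE 1.53).

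Adm, which encodes the vessel-dilating peptide adrenomedullin, was the member with the largest difference, at 7.40, 0.623 and 2.66 CPM in G328V and 146, 9.64 and 2.90 CPM in WT. WT replicate 1 was high for Adm while low for most other members, and G328V replicate 1 lay above WT replicate 70A. The log2 difference was -3.89 (SE 1.68; edgeR unadjusted p = 0.0589, adjusted p = 0.997; DESeq2 adjusted p = 0.211), and -0.82 without WT replicate 1. Egln3, a HIF prolyl hydroxylase that HIF-1 itself induces, was at 80.3, 219 and 143 CPM (G328V) against 44.4, 768 and 287 CPM (WT). Its log2 difference was -1.31 (SE 0.95), and ranged from -1.86 without WT replicate 1 to -0.20 without WT replicate 3.

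Bnip3, which drives removal of mitochondria, was at 48.3, 281 and 91.4 CPM (G328V) against 40.3, 97.6 and 51.8 CPM (WT), with a log2 difference of 1.15 (SE 0.71) that was 0.14 without G328V replicate 2. Ndrg1, a stress-induced gene, spanned 15.3 to 153 CPM in G328V and 10.5 to 103 CPM in WT. Ankrd37, a HIF-1 target that encodes an ankyrin repeat protein, spanned 2.77 to 8.12 CPM in G328V and 0.293 to 19.3 CPM in WT. P4ha1, a collagen prolyl hydroxylase, spanned 112 to 234 CPM in G328V and 117 to 153 CPM in WT. The log2 differences of these 3 were 0.14, -0.55 and 0.25, with standard errors of 1.12, 1.32 and 0.35. Ndrg1 was highest in G328V replicate 2 and Ankrd37 in WT replicate 3, and both were lowest in WT replicate 1.

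Genes around these 32 were described by lists from the same pathways, none of which held a gene past edgeR's false discovery rate. Of 20 tested other glycolysis and pyruvate genes, 14 were positive with a median of 0.27, and 1 higher and 0 lower had an unadjusted p under 0.05, where 1.88% of all genes passed as higher and 2.17% as lower. Bpgm, which makes 2,3-bisphosphoglycerate, was at 36.1, 37.1 and 57.9 CPM (G328V) against 26.7, 15.1 and 25.2 CPM (WT), without overlap (log2 difference 0.97, SE 0.36, edgeR adjusted p = 0.997). Pdk4, another kinase of pyruvate dehydrogenase, was at 3.13, 0.00 and 15.1 CPM (G328V) against 0.0488, 0.0398 and 0.316 CPM (WT). Dlat, a subunit of pyruvate dehydrogenase, had a log2 difference of 0.41 (SE 0.27).

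Of 30 tested other hypoxia-induced genes, 17 were positive with a median of 0.07, and 1 higher and 1 lower had an unadjusted p under 0.05. Lox, a matrix cross-linking enzyme, had 0.00 CPM in each G328V library and 1.35, 0.0682 and 0.115 CPM in the WT libraries, and was the 1 gene of these lists that DESeq2 called (adjusted p = 0.0461). Nrn1, a neurite growth protein, was at 115, 177 and 434 CPM (G328V) against 109.9, 24.1 and 12.9 CPM (WT). Tmem45a was at 0.111, 0.249 and 3.11 CPM (G328V) against 0.236, 72.2 and 55.3 CPM (WT). HIF pathway regulators had 7 of 16 positive differences with a median of -0.02, and 0 members with an unadjusted p under 0.05. Vhl, the ubiquitin ligase subunit that binds hydroxylated HIF, was at 16.7, 19.7 and 12.2 CPM (G328V) against 29.7, 25.5 and 20.7 CPM (WT), without overlap (log2 difference -0.64, SE 0.33, edgeR adjusted p = 0.997). Crebbp and Cited2, a coactivator of HIF and a competitor for it, differed by -0.52 (SE 0.26) and 0.48 (SE 0.38) on the log2 scale.

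Pentose phosphate genes, which branch off at glucose 6-phosphate, had 6 of 7 positive differences with a median of 0.32 and 0 with an unadjusted p under 0.05. Rpia, Rpe and G6pdx differed by 0.72 (SE 0.53), 0.35 (SE 0.32) and 0.32 (SE 0.31) on the log2 scale. Of 22 genes of the TCA cycle and electron transport, 15 were positive with a median of 0.14, and 2 higher and 0 lower had an unadjusted p under 0.05. Uqcrc2, of complex III, was at 177, 223 and 201 CPM (G328V) against 122, 144 and 93.5 CPM (WT), without overlap. Ndufs1, of complex I, was at 149.9, 113 and 145 CPM (G328V) against 100.3, 73.6 and 90.5 CPM (WT), also without overlap. Their log2 differences were 0.74 (SE 0.25) and 0.63 (SE 0.24), with an edgeR adjusted p of 0.997 for both, and that of Uqcrc1 was 0.41 (SE 0.25).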

How the data were processed

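Per the labels' protocols, libraries were ribosome-depleted, stranded and paired-end. Raw HTSeq counts by gene symbol, as whole numbers, are one deposited table. Estimated counts by Cufflinks are the other deposited table, rounded here for edgeR. The submitters' processing notes name mm10 and list FastQC (0.11.3), TopHat2 (2.0.13), Bowtie2 (2.2.1). How strand and overlapping genes were counted is not stated, so such genes are uncertain. Each fragment gave close to 2 HTSeq counts, which are therefore not independent molecules.

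The comparison of G328V with WT used edgeR 4.0.16 in R 4.3.3: filterByExpr (minimum count 10), TMM, legacy robust quasi-likelihood F-test, no covariate, Benjamini-Hochberg over all tested genes. An SE is the log2 difference over the square root of F. Alternatives were DESeq2 1.42.0, voom in limma 3.58.1, other scalings and filters, each library left out, a replicate block and the Cufflinks table. The tests were also run on simulated counts, drawn independently of each other, with the outcome not reported here. That run is no measure of how the tests perform on these libraries. Isoform ratios and shares added 0.5 counts, were taken per length of the GENCODE M21 principal transcript (GRCm38) and were tested by exact permutation over libraries. The plot of levels by library used log2 CPM with a prior count of 2.

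Members, pairs and lists were chosen with earlier results of these data known. By rule, values in every library are given for the isoform pairs, the Pfk genes, members with an unadjusted p under 0.05 or groups without overlap, and Hif1a, Car9 and Vegfa, and the 3 genes with the smallest p are named from each other list. Library values of Gpi1, Pgk1, Pgam1, Pdk1, Adm, Egln3 and Bnip3 were added after they were seen.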

Additional observations from a re-analysis of the deposited data

How the results depend on the processing

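No alternative gave a member past the false discovery rate. DESeq2 called 173 genes, none of them a member, while limma-voom, the newer edgeR fit, the other scalings and filters, the Cufflinks table and each left-out library called 0. The number of members without overlap was 7 with total-count scaling, against 10.8% of all genes, and 4 to 8 of 32 with a library left out, against 16.8% to 23.3% of all genes, since fewer libraries overlap less often by construction.

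Several members changed sign with the processing. With limma-voom Pfkfb3, Ndrg1 and Ankrd37 differed by 0.18, -0.29 and 0.47, and with the Cufflinks table Car9 by -0.17; the cause was not tested. Leaving out each library in turn reversed 21 of 192 differences, in 15 members. Their ranges were -0.41 to 0.02 for Hk1, -0.43 to 0.48 for Hk2, -0.02 to 0.82 for Gpi1, -0.29 to 0.13 for Pfkm, -0.15 to 0.33 for Eno1, -0.34 to 1.34 for Ldhb, -0.17 to 0.92 for Slc16a1, -0.70 to 0.86 for Slc16a3, -0.24 to 0.56 for Pdk1, -1.30 to 1.35 for Pfkfb3, -0.72 to 1.81 for Car9, -1.63 to 0.81 for Ndrg1, -1.13 to 1.48 for Ankrd37, -0.18 to 0.43 for P4ha1 and -0.51 to 0.01 for Hif1a. The other 17 kept their sign, with ranges that include 0.98 to 1.98 for Ldha, 0.82 to 1.75 for Aldoc, 0.42 to 1.59 for Eno2, 0.24 to 0.58 for Pgk1, 0.04 to 0.30 for Pgam1 and 0.24 to 0.79 for Pfkfb4. The isoform ratios ranged from -1.01 to 0.11 for Hk1/Hk2, -0.79 to 0.20 for Aldoa/Aldoc, -1.11 to 2.29 for Ldha/Ldhb, -3.25 to 0.85 for Slc16a1/Slc16a3 and -1.26 to 0.46 for Pfkfb3/Pfkfb4, and the Pfkl share from -4.4 to 6.7 percentage points.

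The groups share the replicate numbers 1 and 3. The deviations from the group means of same-numbered libraries had correlations of 0.181 and 0.226 across genes, which are not independent replicates. Those of differently numbered libraries were -0.323 to 0.2, so the pair numbered 3 had the highest value and the pair numbered 1 lay inside that range. The deviations within a group are tied to each other, so these values cannot settle whether a number marks a pairing. Nothing in the labels says that a number marks a shared culture or day. In the replicate block G328V replicate 2 and WT replicate 70A each stood alone, so that difference rests on the pairs of replicates 1 and 3. With the replicate block edgeR called 0 genes, the members' median was 0.50, and Hk1, Gpi1, Ndrg1, Ankrd37 and P4ha1 reversed to 0.03, -0.18, -0.84, 0.59 and -0.23. The ratios Aldoa/Aldoc and Ldha/Ldhb differed by 0.24 and -0.29 within these pairs, Slc16a1/Slc16a3 by -3.42, and Slc16a3 by 4.63. The Car9 and Slc16a3 values of WT replicate 1 rest on 4 and 2 counts.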
